A study of Mus musculus and Homo sapiens
Mus musculus with 12 samples.

Results

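Cd44 was examined as 1 gene of 34496 in the count tables of 7 mouse brain libraries made with snHH-seq, a droplet method that reads total RNA of single nuclei with random reverse transcription primers. It was chosen because its level was lower in libraries made with the preindex, so every difference of Cd44 between primers is given as a description, without a test. The brains came from wild-type male C57BL/6J mice of 6 to 8 weeks, with no treatment of the animals named. How many animals gave the 7 libraries is not stated in the sources used here. Nuclei were isolated from fresh or from frozen tissue. The reverse transcription primer either carried a preindex, a first-round barcode that marks the reaction well (Index), or did not (No_index). There were 2 No_index libraries from frozen and 2 from fresh brain, 2 Index libraries from frozen brain and 1 from fresh brain, so p-values measure the spread between these libraries, which may be technical. For 4 of the 7 libraries, the sample title and the treatment field named opposite primers. The titles were used here, and barcodes of 40 bases in the Index and of 30 bases in the No_index libraries went with the titles.

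CD44 is a transmembrane glycoprotein that binds hyaluronan, the long sugar polymer of the extracellular matrix. Its cytoplasmic tail links to the actin cytoskeleton through ezrin, radixin and moesin, and its ectodomain is built from constant and alternatively spliced variable exons and can be shed by proteases. In the brain it is best known from astrocytes, from immune cells and from reactive and tumour tissue, and neurons are not considered its main source.

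The gene (ENSMUSG00000005087) lies on the minus strand of chromosome 2 at chr2:102811141-102901665 in GRCm38, as annotated in GENCODE, and spans 90525 bases with 9 annotated transcripts, of which 8 are protein coding and 1 is a retained intron. Reads were assigned to whole genes, so introns and exons count alike and isoforms were not separated. The labels Index and No_index name the primer, and its preindexed form is shown for that reason. The libraries also differed in storage and in the cells they held, as given below. The 27-base handle below is followed by a barcode of 10 bases and by 7 random bases.
snHH-seq_RT_random: ggagttggagtgagtggatgagtgatg

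Depth ranged from 8605214 to 42439731 unique fragment identifiers (UFIs, each counting 1 cDNA fragment once) and from 700 to 3100 nuclei per library, 11198 nuclei in all. Pairs of libraries shared at most 10 full barcodes, and at most 35 by the first 30 bases alone. The summed level of 10 neuron markers was 10426 to 11263 CPM (UFIs per 1000000 UFIs) in No_index and 10715 to 11613 CPM in Index libraries. The libraries differed in markers of other cells. Kidney markers summed to 712 and 766 CPM in the Index_frozen libraries and to at most 15.4 CPM in the other 5, and 7 of 7 had a higher mean with Index. Liver markers summed to 38.9 CPM in the Index_fresh library and to at most 3.16 CPM elsewhere. Cerebellar granule markers summed to 53.4 to 140 CPM in No_index and to 0.342 to 0.965 CPM in Index libraries. Microglia markers summed to 129 to 148 CPM in No_index and 40.9 to 75.4 CPM in Index libraries, and endothelial markers to 32.3 to 47.7 and 62.9 to 162 CPM. The higher endothelial sum with Index did not go with more endothelial-like nuclei, as clustered below. They were 1.26% of nuclei with No_index and 0.691% with Index (means over libraries).

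Cd44 was lower in each preindexed library than in any library without the preindex. Its level was 113 and 109 CPM in the No_index_frozen libraries and 108 and 107 CPM in the No_index_fresh libraries. It was 21.1 and 23.1 CPM in the Index_frozen libraries and 14.7 CPM in the Index_fresh library. The 4 No_index libraries were close to each other, the 3 Index libraries were all far below them, and the Index_fresh library was the lowest. The means were 109 ± 2.68 CPM (SD, n = 4) and 19.7 ± 4.42 CPM (SD, n = 3), a ratio of 5.56, or 5.02 in frozen and 7.33 in fresh brain. The fitted difference was -2.46 ± 0.10 (SE) on the log2 scale, beside a share of 15.8% of 19299 genes called different between primers by edgeR and 26.8% whose libraries did not overlap. Since Cd44 was chosen on this contrast, nothing is read from these shares. Among 8054 genes of at least 10 CPM, 4 had a lower fitted difference than Cd44. Nothing is read from this rank either, for the same reason.

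**Figure D1:**
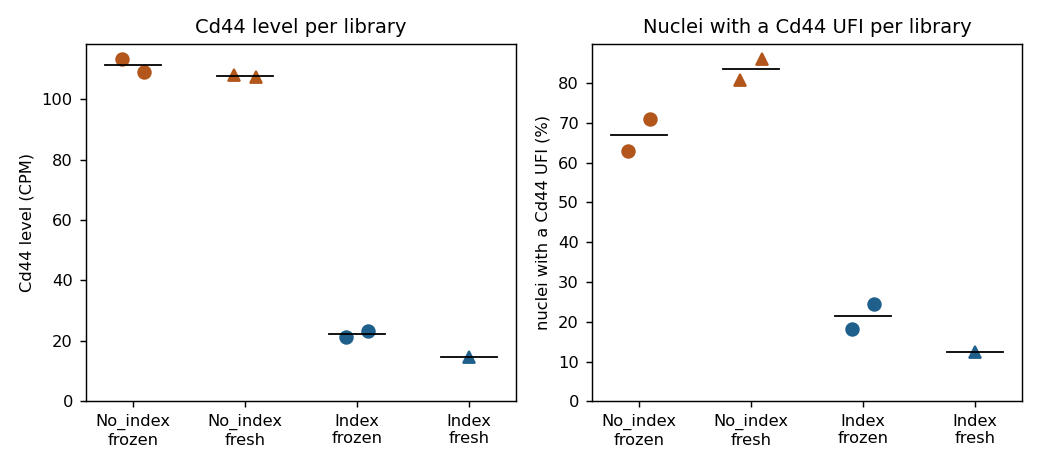
Cd44 in each brain library, in CPM (left panel) and as the percentage of nuclei with at least 1 Cd44 UFI (right panel), by primer and storage (circles frozen, triangles fresh). Black lines mark group means. No_index libraries sit at 107 to 113 CPM and Index libraries at 14.7 to 23.1 CPM.

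Cd44 UFIs were spread over many nuclei. In the No_index libraries 975, 1605, 2672 and 4557 UFIs fell on 63.0% to 86.1% of nuclei, and in the Index libraries 556, 736 and 472 UFIs fell on 12.3% to 24.4%. The largest count in 1 nucleus was 36 with No_index and 16 with Index. Nuclei with at least 10 Cd44 UFIs numbered 136 of 3800 with No_index, held 20.3% of its UFIs and came from 22 clusters. Of these nuclei 86.8% were neuron-like, against 89.4% of all No_index nuclei. With Index there were 2 such nuclei of 7398. Within libraries the level did not rise with depth. In the 25% of nuclei with fewest UFIs of each No_index library it was 118 to 139 CPM, and in the 25% with most 102 to 113 CPM. In the Index libraries the shallowest had 14.2 to 30.4 CPM and the deepest 13.6 to 22.7 CPM.

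To see which kinds of nuclei held these UFIs, the nuclei were clustered without Cd44, and the 25 clusters were named from marker lists. There were 18 neuron-like clusters (9825 nuclei) and 1 each of oligodendrocyte-like (335), astrocyte-like (216), OPC-like (113, oligodendrocyte precursors) and endothelial-like (103) nuclei. The endothelial-like cluster was also led by the pericyte genes Rgs5 and Atp13a5. In it 7 of 7 endothelial, 5 of 5 pericyte and 4 of 5 fibroblast markers were raised. Its Cd44 level may thus not be that of endothelial cells alone. A further 3 clusters stayed unnamed. They were led by the kidney gene Slc34a1 (481 nuclei, each from an Index library), by the liver gene Cps1 (91 nuclei, in which 7 of 7 microglia markers were also raised) and by the Purkinje cell gene Car8 (34 nuclei, each from a No_index library). No cluster met the rule for microglia-like nuclei.

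Neuron-like nuclei held most of the Cd44 UFIs with either primer. They held 87.8% of them with No_index, where they gave 89.5% of UFIs of any gene, and 82.3% with Index, where they gave 88.4% (means over libraries). The cluster led by Slc34a1, a renal phosphate transporter, held 171 of the 1764 Cd44 UFIs of the Index libraries. Oligodendrocyte-like nuclei held 3.55% and 2.57%, astrocyte-like nuclei 2.09% and 3.40%, endothelial-like nuclei 2.16% and 1.14%, and OPC-like nuclei 0.885% and 0.794%.

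The level was lower with the preindex in each cluster that both primers held. The cluster led by Cps1 is counted among them, though its nuclei may differ in kind between the primers. Of the clusters, 20 had at least 20 nuclei with each primer (10361 nuclei), and in 20 of 20 the pooled level was lower with Index. Of 8052 genes of at least 10 CPM, 294 (3.65%) had a lower pooled level with Index in each of these clusters. The libraries of the 2 primers did not overlap for Cd44 in them either. The share of all genes for which this held was not counted, so nothing is read from it. Some of these library values came from few nuclei, such as 1 nucleus with 2 Cd44 UFIs. The pooled level was 75.4 to 219 CPM with No_index (median 106) and 7.67 to 38.8 CPM with Index (median 19.5). The ratio ran from 2.37 in the astrocyte-like cluster to 12.9 in a neuron-like cluster led by Tshz1 that had 5 Cd44 UFIs with Index. Its median was 5.34, and in the 15 neuron-like clusters it was 4.41 or more.

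**Figure D2:**
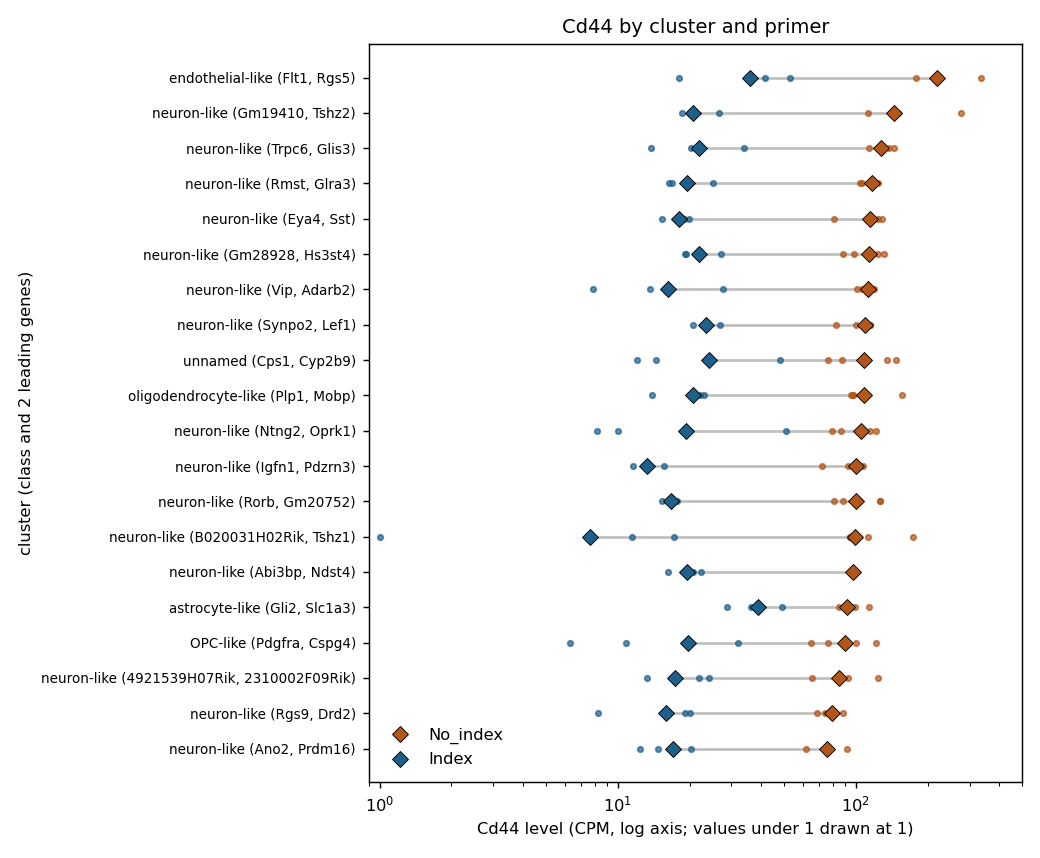
Cd44 level (CPM, log axis) in the 20 clusters with at least 20 nuclei of each primer, ordered by the No_index level. Diamonds are nuclei pooled over libraries and dots are single libraries, and in each row the Index diamond lies to the left of the No_index diamond.

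In neuron-like nuclei Cd44 was at 111 and 105 CPM in the No_index_frozen, 107 and 106 CPM in the No_index_fresh, 18.6 and 21.5 CPM in the Index_frozen and 14.4 CPM in the Index_fresh library. The means were 107 ± 2.60 CPM (SD, n = 4) and 18.2 ± 3.58 CPM (SD, n = 3), a ratio of 5.91. The fitted log2 difference over neuron-like nuclei was -2.46 ± 0.09 (SE), as large as over all nuclei. With No_index, the lowest neuron-like clusters were led by Ano2 (75.4 CPM) and by Rgs9 and Drd2, genes of striatal neurons (79.0 CPM). The highest of them with enough nuclei of both primers was led by Gm19410 and Tshz2 (144 CPM), and its libraries ran from 113 to 277 CPM. Clusters led by the interneuron genes Vip and Sst lay between, at 112 and 114 CPM. The cerebellar granule cluster led by Fat2 and Cbln3 came from No_index libraries with 241 nuclei, and its level of 114 CPM was within the range of the other neuron-like clusters.

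Endothelial-like nuclei had the highest level of the named classes with No_index. It was 335 and 179 CPM in the frozen and 226 and 216 CPM in the fresh libraries, from 8 to 19 nuclei each. With Index it was 52.7 and 18.1 CPM in the frozen and 41.3 CPM in the fresh library, from 18 UFIs in all. The 4 No_index values lay above every No_index value of the other named classes, and the 3 Index values overlapped those of the other classes.

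Astrocyte-like nuclei had 114, 98.6, 95.1 and 84.7 CPM in the No_index libraries, frozen first, and 36.3, 49.0 and 28.9 CPM in the Index libraries. Without the preindex their level was below that of neuron-like nuclei in 3 of 4 libraries, and with it above in 3 of 3. The Index values came from 26, 25 and 10 UFIs. In these libraries 31.1%, 21.2% and 15.6% of astrocyte-like nuclei had a Cd44 UFI, against 17.4%, 24.6% and 12.3% of neuron-like nuclei. By this share, astrocyte-like nuclei were not above neuron-like nuclei in the second Index_frozen library. There they were also shallower, with a median of 11129 UFIs against 14576.5. Thinned to 3000 UFIs per nucleus, the 2 shares in that library were 6.06% (2 of 33 nuclei) and 5.89%. Oligodendrocyte-like nuclei had 95.4 to 155 CPM with No_index and 13.9 to 22.9 CPM with Index. OPC-like nuclei had 64.5 to 122 CPM and 6.29 to 31.9 CPM, the latter from 16 UFIs.

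In order of the pooled level with No_index, endothelial-like nuclei (219 CPM, 95% exact interval 191 to 249) came first, followed by oligodendrocyte-like (108, 96.4 to 120), neuron-like (107, 105 to 109), astrocyte-like (92.0, 79.6 to 106) and OPC-like nuclei (90.2, 72.1 to 112). Past the first, neighbours in this order did not differ beyond their intervals. With Index the order was astrocyte-like (38.8, 29.6 to 49.8), endothelial-like (35.8, 21.2 to 56.6), oligodendrocyte-like (20.6, 15.2 to 27.4), OPC-like (19.7, 11.3 to 32.0) and neuron-like nuclei (18.0, 17.0 to 18.9). Each neighbour's interval overlapped the next, and the interval of the astrocyte-like nuclei lay above those of the oligodendrocyte-like and neuron-like nuclei. These intervals are Clopper-Pearson intervals that cover counting error only. In the clusters that 1 primer alone held, Cd44 was at 38.4 CPM in the one led by Slc34a1 (Index) and at 178 CPM in the one led by Car8 (No_index). In the cluster led by Cps1 it was at 108 CPM with No_index (39 nuclei) and 24.0 CPM with Index (52 nuclei). Liver markers summed to 0.950 to 1.41 CPM in No_index and 2.45 to 38.9 CPM in Index libraries. The nuclei of this cluster may thus differ in kind between the primers, and its 2 levels are not read as those of 1 kind.

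Whether the difference by primer was of like size in each class is described by the log2 ratio of each class to neuron-like nuclei of the same library, with a pseudocount of 1 CPM. The ratio in astrocyte-like nuclei was -0.14 ± 0.15 (SD, n = 4) with No_index and 1.01 ± 0.12 (SD, n = 3) with Index, a difference of 1.15. The libraries of the 2 primers did not overlap. The Index ratios rest on 26, 25 and 10 Cd44 UFIs of astrocyte-like nuclei. The 25 UFIs, in the second Index_frozen library, fell on 21.2% of 33 nuclei, so single nuclei weigh on its ratio. In oligodendrocyte-like nuclei the difference was 0.07, in OPC-like nuclei -0.13 and in endothelial-like nuclei -0.22, and the libraries overlapped in these 3 classes.

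**Figure D3:**
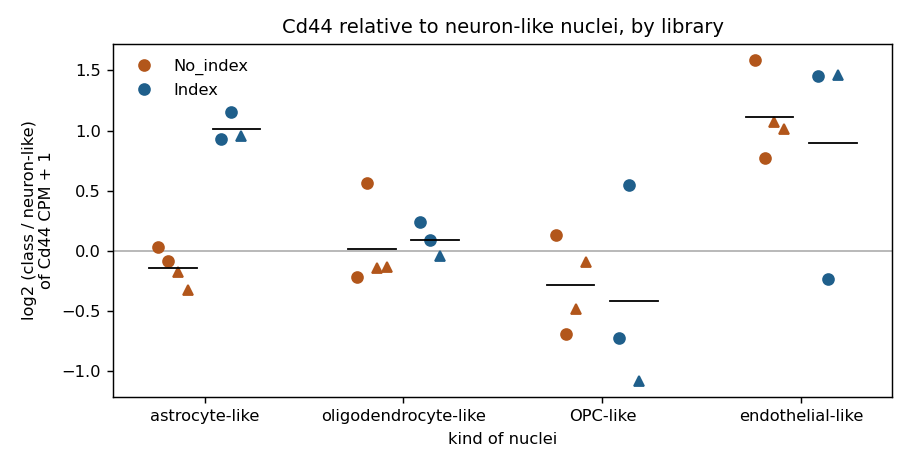
Log2 ratio of the Cd44 level (CPM + 1) in each class to that in neuron-like nuclei of the same library, by primer (circles frozen, triangles fresh, black lines means). The 3 Index libraries lie above the 4 No_index libraries for astrocyte-like nuclei, and the primers overlap in the other 3 classes.

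The fall was mostly within kinds of nuclei. The difference of -89.7 CPM between the mean Index and the mean No_index library was split into a part from levels within kinds and a part from the shares of kinds, over 21 kinds (the 20 clusters and 1 that merged the rest). The levels within kinds gave -87.3 CPM (97.3%) and the shares of kinds -2.41 CPM (2.68%). Of the former, -6.66 CPM (7.42% of the total) came from the merged kind. That kind was mostly the clusters led by Fat2 and Car8 with No_index, and the one led by Slc34a1 with Index. Its part is thus not a change within 1 kind. In the 20 clusters alone, a setting chosen after seeing the data, the part within kinds was 97.5%. For the 12 pairs of 1 No_index and 1 Index library, the part within kinds was 96.8% to 99.4%. The largest contributions came from the neuron-like clusters led by Rmst (15.8% of the total), Rorb (11.4%) and Abi3bp (7.57%), which were also among the largest by UFIs. Endothelial-like nuclei gave 1.68%. With 19 clusters weighted alike in each library, the level was 104 to 111 CPM in the No_index and 15.0 to 23.1 CPM in the Index libraries, against 107 to 113 and 14.7 to 23.1 CPM without such weights.

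The difference was also seen at equal depth. After each nucleus was thinned to 3000 UFIs, 26.8% ± 1.39 (SD, n = 4) of nuclei had a Cd44 UFI with No_index and 5.57% ± 1.75 (SD, n = 3) with Index. In neuron-like nuclei the pooled share was 26.1% (95% exact interval 24.6% to 27.6%, from 77.0% before thinning at a median of 19704 UFIs) and 4.72% (4.21% to 5.26%, from 16.9% at a median of 10870.5 UFIs). In astrocyte-like nuclei it was 27 of 90 nuclei with No_index and 11.9% with Index. It was 29.3% and 6.38% in oligodendrocyte-like, 21.4% and 2.82% in OPC-like and 49.0% and 7.41% in endothelial-like nuclei, and 10.6% in the cluster led by Slc34a1. The thinning left out 2 No_index nuclei and 1 Index nucleus. With No_index, the intervals of astrocyte-like, oligodendrocyte-like and OPC-like nuclei overlapped that of neuron-like nuclei. No kind of brain nuclei is known here to lack Cd44 RNA. Of the kinds named here only endothelial-like nuclei had a No_index share whose interval lay above that of neuron-like nuclei. Their share came from 3 of 8 and 7 of 10 nuclei in the frozen, and 5 of 12 and 9 of 19 in the fresh libraries. The intervals pool nuclei over libraries and cover counting error only. Whether the thinned shares reflect expression of Cd44 in neurons was not tested, and neither was the part of free RNA in the droplets.

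**Figure D4:**
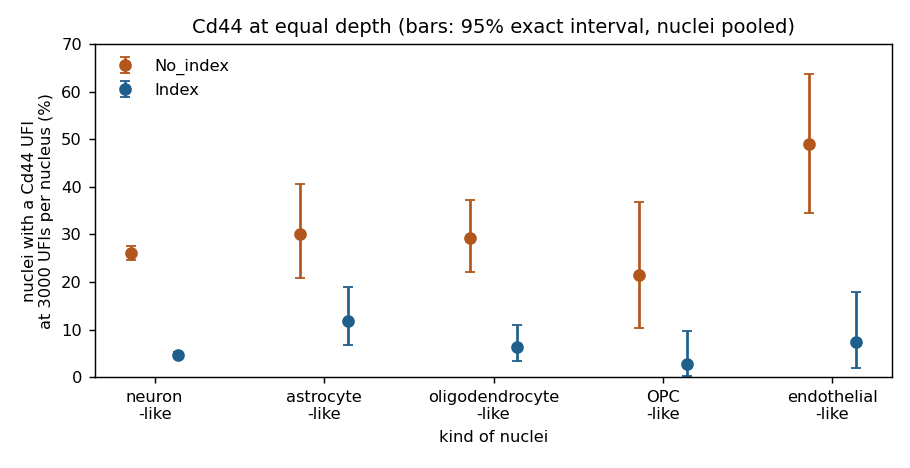
Percentage of nuclei with a Cd44 UFI after thinning each nucleus to 3000 UFIs, by class and primer, with nuclei pooled over libraries and 95% exact intervals. No_index shares run from 21.4% to 49.0% and Index shares from 2.82% to 11.9%.

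Storage was not used to choose Cd44. Over the libraries Cd44 differed by 0.25 ± 0.10 (SE) on the log2 scale between frozen and fresh brain. It did not pass edgeR's quasi-likelihood test (Benjamini-Hochberg adjusted p = 0.279), which called 40 of 19299 genes (0.207%). Without the Index_fresh library the storage difference was 0.09 ± 0.06 (SE), so most of it rests on that 1 library. The fitted difference by primer was 0.46 ± 0.10 (SE) less negative on the log2 scale in frozen than in fresh brain. This too is a description, as it rests on the primer contrast, and its preindexed fresh side is 1 library that the fit assumes to vary like the others. Kidney markers were high in the Index_frozen libraries alone, and without the clusters rich in kidney or liver genes the value was 0.41 ± 0.11.

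Other genes of the hyaluronan and CD44 pathway showed no common shift with the primer. Of 41 listed genes, 39 passed the filter on low counts (Hyal1 and Lyve1 did not). With edgeR 8 of them passed the test, which is 20.5% of the list beside 15.8% of all genes. There were 5 higher and 3 lower with Index, where 7.88% of all genes were higher and 7.88% lower. The count rests on single libraries. Without the Index_fresh library it was 17 of 39 (43.6%), beside 31.3% of all genes, and without the second Index_frozen library 5 of 39 (12.8%), beside 5.26%. The median log2 difference was 0.08 over the list and -0.02 over all genes. None of the 39 was as low as Cd44, which was chosen for its fall. Per kilobase of gene, the list was led by Ank3 (3.13 CPM per kb), Ncan (2.59), Hapln4 (1.80) and Bcan (1.46), and Cd44 stood at 0.784.

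Among the synthases of hyaluronan, Has1, Has2 and Has3 were all at or below 1.77 CPM, and none passed. Of the enzymes that break hyaluronan down, Cemip, a hyaluronan-binding depolymerase, rose from 75.2 ± 2.71 CPM (SD, n = 4) with No_index to 88.1 ± 2.57 CPM (SD, n = 3) with Index, a log2 difference of 0.33 ± 0.04 (SE, edgeR adjusted p = 0.00413). Tmem2, the older symbol of Cemip2, was at 36.8 ± 3.12 and 36.1 ± 8.44 CPM. The other hyaluronan receptors Hmmr, Stab1, Stab2 and Layn were at 0.492 to 2.59 CPM with No_index, and none passed.

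Of the hyaluronan-binding matrix genes, 3 fell. They were the brain lectican Bcan, from 22.0 ± 1.27 to 13.8 ± 2.09 CPM (log2 difference -0.64 ± 0.08, edgeR adjusted p = 0.00412), and the link protein genes Hapln4, from 17.7 ± 1.53 to 7.42 ± 1.54 CPM (-1.15 ± 0.16, edgeR adjusted p = 0.00539), and Hapln2, from 1.23 ± 0.229 to 0.421 ± 0.018 CPM (-1.44 ± 0.26, edgeR adjusted p = 0.0131). Hapln2 lost its call without 1 library (edgeR adjusted p at most 0.0509). Ncan, a further lectican, was at 79.2 ± 13.0 and 62.3 ± 1.79 CPM and did not pass (edgeR adjusted p = 0.0505). Bcan and Hapln4 were also called in neuron-like nuclei alone.

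Among cytoskeletal linkers, Ank3, which encodes ankyrin-G of the axon initial segment, rose from 1795 ± 67.8 to 2194 ± 96.2 CPM (log2 difference 0.37 ± 0.05, edgeR adjusted p = 0.00357). Ezr, Rdx, Msn, Nf2 and Iqgap1 did not pass. Neither did the proteases that cut CD44, of which Adam10, a sheddase, was at 95.3 ± 4.33 and 89.8 ± 3.64 CPM.

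The partner receptor genes Met and Erbb2 and the epithelial splicing factor gene Esrp2, which acts on CD44 variable exons, were called higher with Index. Met had 7.72 to 10.3 CPM with No_index and 10.3 to 31.5 CPM with Index (edgeR adjusted p = 0.0181), Erbb2 0.444 to 0.848 and 0.778 to 7.27 CPM (edgeR adjusted p = 0.0423), and Esrp2 at most 0.116 and 0.0934 to 1.16 CPM (edgeR adjusted p = 0.00655). The wide Index ranges went with the kidney marker list named above. Without the clusters rich in kidney or liver genes Met was still called and Erbb2 and Esrp2 were not, and the list had 7 calls among 37 genes tested (18.9%), beside 19.3% of all genes. Met passed in 3 and Erbb2 in 2 of the 7 fits that left out 1 library, and Cemip, Bcan, Hapln4, Ank3 and Esrp2 in 7 of 7. In neuron-like nuclei 7 of 35 tested list genes were called, beside 20.6% of all genes. By storage 0 of 39 list genes passed with edgeR. Of the 39, 10 had an unadjusted p under 0.05 with edgeR, a larger share than the 15.0% of all genes. With DESeq2 Ncan and Spp1 passed (5.13% of the list), beside 1.86% of all genes with an adjusted p.

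**Figure D5:**
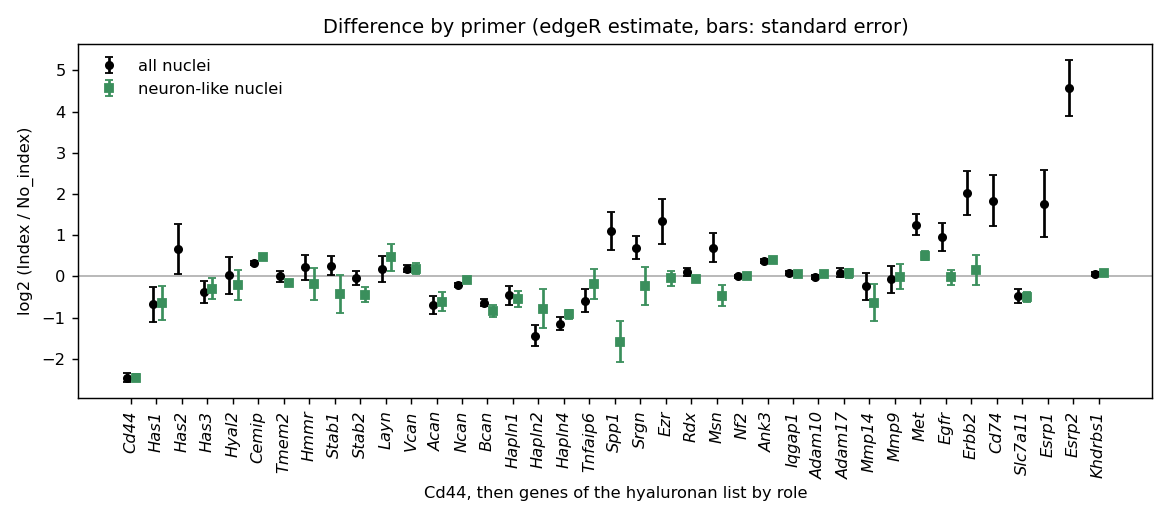
Fitted log2 difference between Index and No_index libraries for Cd44 and 38 of the 39 tested genes of the hyaluronan list, ordered by role, over all nuclei (black circles) and neuron-like nuclei (green squares), with standard errors. Cd44 lies at -2.46 in both, and Hapln2, at -1.44 over all nuclei, is the lowest of the list there.

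Of 7 genes near Cd44 on chromosome 2, 1 was called different between primers, beside 15.8% of all genes, so nothing is read from the count. None of the 4 protein-coding ones was called. Slc1a2, the astrocytic glutamate transporter 20357 bases away on the plus strand, was at 558 ± 84.0 CPM with No_index and 537 ± 64.2 CPM with Index, and Pdhx on the other side was at 40.3 ± 1.95 and 40.8 ± 1.31 CPM. Apip differed by 0.03 ± 0.09 (SE) on the log2 scale, and Pamr1 was at 18.8 ± 3.48 and 18.4 ± 3.56 CPM. The snRNA gene Gm23731 lies inside Cd44 on the opposite strand and was at 0.670 ± 0.0898 and 1.26 ± 0.320 CPM. Whether the brain reads were counted by strand is not given in the sources used here, so reads of the 2 genes may not be told apart. Gm13872 was at 0.292 and 0.142 CPM. The pseudogene Gm10038, at 0.733 ± 0.281 and 0.196 ± 0.100 CPM, was the one called, lower with Index (log2 difference -1.74 ± 0.47, edgeR adjusted p = 0.0456).

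Over the 40 points made by 20 clusters and 2 primers, the genes whose level was most like that of Cd44 were Mir6236 (Pearson r = 0.943), Gm15564 (0.923), Gm14236 (0.919), Zfp791 (0.912) and Rn7sk (0.903), the last a small nuclear RNA that regulates transcription elongation. Each was lower with Index in 20 of 20 clusters. Their median ratio over clusters was 2.40 for Rn7sk to 4.07 for Zfp791, against 5.14 for Cd44 on the same scale (CPM + 1). The points share libraries, depth and the primer contrast on which Cd44 was chosen. Of the 8052 genes, 4 had a median ratio at or above that of Cd44, which were Cd44 itself, Gpr149 and the cerebellar granule genes Fat2 and Cbln3 (chosen after their values were seen). Nothing is read from this rank, as Cd44 was chosen on the primer contrast. Over the 7 libraries the genes most like Cd44 were Rbck1, Rubcn, Tnpo2, Hcn2 and Eef2 (Pearson r = 0.991 to 0.997). They differed less between primers, with Rbck1 at 31.6 ± 0.262 and 27.1 ± 0.667 CPM and Eef2, translation elongation factor 2, at 61.7 ± 2.42 and 27.1 ± 0.979 CPM.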

How the data were processed

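Nuclei of mouse brain were profiled by snHH-seq in 7 libraries. The values are raw UFI counts, as the authors deposited them. Before deposit, Cutadapt removed poly-A tails, a hand-set read minimum from the UMI-tools whitelist picked the barcodes, STAR aligned the reads, and those with a unique position went through featureCounts (gene level) and UMI-tools count. The methods name the human build for this step. The submitters' processing notes also list GRCm38 and mm10, so coordinates are those of GENCODE on GRCm38 and were matched by symbol.

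All 11198 nuclei were kept, with no doublet caller. Counts were scaled to 10000 per nucleus, logged, reduced to 2000 variable genes without Cd44 and 40 components, and clustered (10 neighbours, Leiden resolution 0.4, scanpy 1.11.5). To carry the name of a glial or vascular class, a cluster needed 3 or more markers of that class, and 50% or more of its list, raised 2-fold over the average of the remaining clusters, with 1 in its top 10 genes by fold. Neuron-like clusters needed 3 neuron markers over the cluster average and no other class with both a top gene and 2 raised markers, a condition set after seeing a first clustering. The members, gene lists and marker lists were chosen with earlier results of these data known.

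UFIs summed per library were filtered with filterByExpr, scaled by TMM and fitted with edgeR 4.0.16 (glmQLFTest, storage and primer as terms, Benjamini-Hochberg adjustment, threshold 0.05). DESeq2 1.42.0 was an alternative. The interaction was a further model. Its test and exact permutation tests of the class ratios were run, and their p-values are not given because Cd44 was chosen on the primer contrast. Standard errors are the fitted log2 difference over the root of the F statistic. On simulated data with 200 genes changed by 1.5 on the log2 scale, the primer fit recovered 200 with 11 false calls and the storage fit 200 with 9. The changed genes were drawn from those of at least 10 CPM, so recovery of rarer genes or of smaller differences was not checked. Each gene was simulated from its mean level with the trended spread. Outlying libraries and differences in cells between libraries were thus not simulated, and calls under them were not checked. The genes named are Cd44, list genes that passed a test or were highest per kilobase, neighbours, and the 5 genes most like Cd44 by each of 2 correlations. A list's matrix, receptor and enzyme genes named beside them complete a role. Of the list, 1 gene is counted but not reported here. Of the species mix, 1 library was used, and the 4 libraries of the loading series were not used. Alternatives covered the test, scaling, filter, block, clustering, depth and leaving out each library.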

Additional observations from a re-analysis of the deposited data

Results flagged for a closer look

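Cd44 in the oligodendrocyte-like nuclei of the second No_index_frozen library was at 155 CPM (88 UFIs in 34 nuclei), far from the nearest other No_index library at 97.3 CPM. This was the 1 library that stood apart among 8 sets of 4 No_index libraries checked, and chance alone would set about 1 in 20 apart. The Index libraries were at 13.9 to 22.9 CPM in the same kind, so the primers did not overlap with or without it.

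The difference of Cd44 by primer was 0.46 less negative on the log2 scale in frozen than in fresh brain. It is given as a description, since Cd44 was chosen on the primer contrast and the preindexed fresh side is 1 library. Cd44 was at 22.1 ± 1.41 CPM (SD, n = 2) in the Index_frozen libraries and at 14.7 CPM in the Index_fresh library, and at 111 ± 3.07 (SD, n = 2) and 108 ± 0.412 CPM (SD, n = 2) in the No_index libraries. Kidney markers summed to 712 and 766 CPM in the Index_frozen libraries and to 8.56 CPM in the Index_fresh library. The cluster led by Slc34a1 had 38.4 CPM of Cd44, and without the clusters rich in kidney or liver genes the value was 0.41. In neuron-like nuclei Cd44 was at 18.6 and 21.5 CPM in the Index_frozen libraries and 14.4 CPM in the Index_fresh library.

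The species mix of mouse 3T3 fibroblasts and human 293T cells, made with preindexed primers, entered no comparison of the brain. In its 1170 nuclei of 3T3 cells, mouse Cd44 was at 436 CPM (95% exact interval 426 to 447, counting error only), and 92.6% of them had a Cd44 UFI (90.9% to 94.0%) at a median of 10898 UFIs. In the 1134 nuclei of 293T cells, which cannot make mouse RNA, mouse Cd44 was at 6.61 CPM (5.52 to 7.85) and on 9.79% of nuclei (8.12% to 11.7%) at a median of 14222.5 UFIs. Cd44 was thus counted with a preindexed primer in fibroblast nuclei. The same mix without the preindex was not analysed here, so the level there is not set against it.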

How the results depend on the processing

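The fitted difference of Cd44 by primer kept its direction under each of 14 alternatives and ran from -2.54 to -2.28 when 1 library was left out. The storage difference passed the threshold without the filter on low counts (0.23, edgeR adjusted p = 0.0301) and turned to -0.18 without the primer term. With 1 library left out it was 0.09 to 0.33, lowest without the Index_fresh library. The interaction kept its direction under 12 alternatives (0.39 to 0.52 with 1 library left out), and it could not be fitted without the Index_fresh library. The list had 16 calls by primer without the filter (39.0% of it, beside 13.9% of all genes) and 5 to 17 with 1 library left out (12.8% beside 5.26% without the second Index_frozen, 43.6% beside 31.3% without the Index_fresh library). By storage it had 2 calls with DESeq2 (5.13% beside 1.86%), 10 without the filter (24.4% beside 5.62%) and 0 to 2 with 1 library left out (2, or 5.13% beside 4.63%, without the Index_fresh library). The part of the fall within kinds was 94.3% at resolution 1.2, 95.8% with 20 components, 118% with values centred per library, 101% by class, 98.9% and 95.7% with No_index and Index weights, 97.5% in shared clusters alone (chosen after seeing the data), and 96.9% to 97.8% with 1 library left out. The cause was not tested. The Index minus No_index difference in neuron-like nuclei was -84.9 CPM with 20 components and -90.8 to -87.3 CPM with 1 library left out, and that of the thinned share was -29.9 percentage points at 5000 UFIs and -21.8 to -20.2 with 1 library left out. Class differences with 1 library left out were 1.08 to 1.21 (astrocyte-like), -0.0049 to 0.26 (oligodendrocyte-like), -0.62 to 0.20 (OPC-like) and -0.50 to 0.35 (endothelial-like), turning sign in the last 3. Replicate numbers were taken only to name libraries. Their deviations over the genes tested correlated at -0.04 to 0.04. Counting noise lowers such correlations, so a pairing of the replicates cannot be judged from them. With a replicate block Cd44 was at -2.45 by primer, 0.25 by storage and 0.47 in the interaction, the list had 7 calls by primer, and the count of all genes called by primer fell from 3041 to 1731. Rare kinds with under 20 Cd44 UFIs limit what can be ranked.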
